A study of Mus musculus with 6 samples.

Results

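Exonic DPPA4 regions outside promoters were stretches of the mouse genome that carried a CUT&RUN peak for DPPA4 and were centred on an exon, away from any annotated transcript start. Peaks of the GFP-negative and GFP-positive lists on chromosomes 1 to 19 were merged where they shared at least 1 bp. A merged region was kept when it was at most 4 kb wide, when its midpoint lay in a GENCODE vM21 exon (mm10), and when that midpoint was outside the window from 2.5 kb before to 0.5 kb after every transcript start. The rule found 6268 regions among 96636 merged regions of at most 4 kb, and among 97623 merged regions of any width. The rule did not use the class of a region, which is whether its peaks came from both lists, from the GFP-negative list only or from the GFP-positive list only, nor the part of the exon or the gene family.

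All libraries came from mouse embryonic stem cells (mESCs) of a BL6/129 hybrid background, grown in FBS/LIF, in which endogenous EHMT2 is fused to a dTAG degron with an mCherry reporter and a MERVL-GFP reporter marks 2-cell-like cells (2CLCs). EHMT2 adds the H3K9me2 mark to histones, and the dTAG compound degrades it. All cells received dTAG for 72 h before live sorting on GFP, with 2 DPPA4 libraries of GFP-negative cells (mESCs) and 2 of GFP-positive cells (2CLCs), as well as 1 IgG library of GFP-negative cells and 1 of bulk cells that were not used here. The 2 DPPA4 libraries of a state were pooled into 1 peak list by the authors, so there was no spread between replicates and no comparison carries a p-value. No sample was without dTAG, so cells with and without EHMT2 depletion could not be compared.

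DPPA4 forms a heterodimer with DPPA2, carries a SAP DNA-binding domain and is known for occupying CG-rich promoters and young LINE-1 elements in mESCs, where the pair is needed to switch on genes of the 2-cell embryo. Exons are the transcribed segments kept in the mature RNA. Coding exons are richer in G and C than introns, and last exons are mostly long and carry the 3′ untranslated region (3′ UTR). Many but not all genes of the C2H2 zinc finger family encode their tandem DNA-binding fingers in a single long last exon, with a conserved linker peptide between neighbouring fingers.

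The sequences below, from the RefSeq GRCm38.p6 assembly (mm10), show the kind of DNA under the strongest coding summits. For each class they are the 2 regions with the highest −log10 q whose summit lay in coding sequence that occurs once in the genome, with at least 70 coding bases around the summit, leaving out 1 chromosome from which no sequence is printed. Each is given 5′ to 3′ on the coding strand over 101 bases centred on the summit, with CG dinucleotides in capitals. Sp6 and Zfp865, both zinc finger genes, had peaks in both lists. Of the 3950 bp of the Zfp865 region, 2157 lay in a promoter window, against 0 for the Sp6 region.
Sp6, chr11:97021907-97022007, plus strand: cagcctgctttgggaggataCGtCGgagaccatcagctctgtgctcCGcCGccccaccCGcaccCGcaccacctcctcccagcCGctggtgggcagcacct
Zfp865, chr7:5029893-5029993, plus strand: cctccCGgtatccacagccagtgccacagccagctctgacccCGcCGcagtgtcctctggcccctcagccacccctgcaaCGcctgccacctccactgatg
Ttll8, a tubulin-modifying enzyme, and Helz, an RNA helicase, had a peak in the GFP-negative list only.
Ttll8, chr15:88914088-88914188, minus strand: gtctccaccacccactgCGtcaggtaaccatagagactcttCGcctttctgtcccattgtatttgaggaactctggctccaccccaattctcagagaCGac
Helz, chr11:107686481-107686581, plus strand: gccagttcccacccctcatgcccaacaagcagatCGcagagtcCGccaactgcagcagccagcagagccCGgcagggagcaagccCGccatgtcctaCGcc
Atf5, a bZIP transcription factor, and Gdf6, a ligand of the BMP family, had a peak in the GFP-positive list only.
Atf5, chr7:44812946-44813046, minus strand: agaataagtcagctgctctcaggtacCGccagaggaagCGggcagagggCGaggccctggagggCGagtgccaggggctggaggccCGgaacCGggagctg
Gdf6, chr4:9860106-9860206, plus strand: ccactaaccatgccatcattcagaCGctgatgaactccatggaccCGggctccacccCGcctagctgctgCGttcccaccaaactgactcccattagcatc
These windows held between 3 and 7 CG dinucleotides. The −log10 q, the significance of the peak summit as given by the authors, was 26.9 in mESCs and 24.2 in 2CLCs at Sp6, and 25.9 and 23.9 at Zfp865. Single-list regions were weaker, with 19.1 at Ttll8 and 18.3 at Helz in the GFP-negative list, and 9.94 at Atf5 and 8.09 at Gdf6 in the GFP-positive list.

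A second set shows zinc finger exons, whose fingers are joined by a conserved linker peptide. They are, under the same exclusion, each among the 2 strongest regions of their class in a C2H2 zinc finger gene with the codons of the conserved TGEKP linker peptide within 100 bp of the summit, and linker codons are in capitals.
Prdm9, chr17:15544176-15544376, minus strand: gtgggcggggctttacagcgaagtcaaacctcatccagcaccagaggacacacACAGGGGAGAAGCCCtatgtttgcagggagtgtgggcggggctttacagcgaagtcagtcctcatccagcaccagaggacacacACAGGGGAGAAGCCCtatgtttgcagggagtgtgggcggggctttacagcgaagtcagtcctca
Zscan2, chr7:80875738-80875938, plus strand: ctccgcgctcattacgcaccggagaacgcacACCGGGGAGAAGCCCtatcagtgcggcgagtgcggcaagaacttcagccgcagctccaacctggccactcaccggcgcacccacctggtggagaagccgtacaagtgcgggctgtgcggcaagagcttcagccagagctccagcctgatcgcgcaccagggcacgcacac
Zfp629, chr7:127611505-127611705, minus strand: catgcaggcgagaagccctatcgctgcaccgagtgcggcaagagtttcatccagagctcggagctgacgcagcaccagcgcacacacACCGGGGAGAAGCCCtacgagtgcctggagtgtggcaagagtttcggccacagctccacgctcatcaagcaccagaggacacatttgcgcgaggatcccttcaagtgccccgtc
Prdm9, the methyltransferase that places meiotic recombination hotspots, had peaks in both lists with a −log10 q of 53.7 and 39.1, and the 200 bp around its summit had a copy number of 5 in its array of near-identical finger repeats. Zscan2 had a peak in the GFP-negative list only (6.74) and Zfp629 in the GFP-positive list only (4.18). The linker window of Prdm9 held 2 linkers and the Zscan2 and Zfp629 windows held 1 each. The strongest GFP-positive-only coding region of the family lay in the last exon of Zscan4-ps2, a member of the Zscan4 gene cluster that marks 2CLCs, and is shown over 101 bases with CG dinucleotides in capitals.
Zscan4-ps2, chr7:11518307-11518407, plus strand: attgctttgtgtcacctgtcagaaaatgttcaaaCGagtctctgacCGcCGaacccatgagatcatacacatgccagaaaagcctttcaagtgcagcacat
Its −log10 q was 7.08, its GC content in this window was 45.5% and its copy number was 7.

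Exonic regions were more numerous than the small exonic share of the genome would give and were split among the lists differently from intronic regions. They made up 6.49% of merged regions (95% Wilson interval 6.33 to 6.64), while exonic bases outside promoters made up 3.44% of assembled bases. Of the 6268 regions, 2183 had peaks in both lists (34.8%, 33.7 to 36.0), compared with 34.3% of all merged regions. Another 3051 were GFP-negative only (48.7%, 47.4 to 49.9), compared with 47.6%, and 1034 were GFP-positive only (16.5%, 15.6 to 17.4), compared with 18.2%. The shares of exonic regions were therefore close to those of all regions, of which 34.0% were in introns, 31.6% intergenic and 27.9% at promoters. Every interval covers counting error alone, as if adjacent regions were unrelated.

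**Figure D1:**
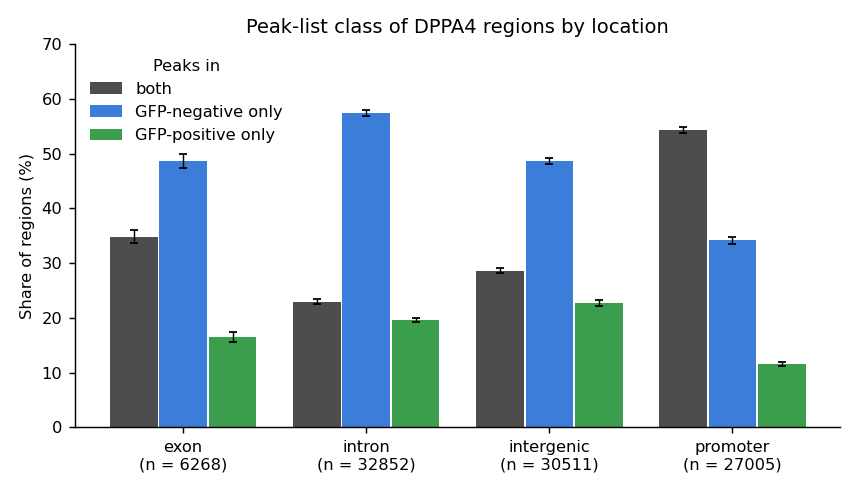
Share of merged DPPA4 regions (percent, vertical axis) with peaks in both lists, the GFP-negative list only or the GFP-positive list only, for regions centred on exons, introns, intergenic sequence or promoters. Bars are shares, whiskers 95% Wilson intervals, and n is the number of regions. The share found in both lists was 34.8% in exons, between the 22.9% of introns and the 54.3% of promoters.

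The both-list share was 11.9 percentage points higher in exonic than in intronic regions (95% Newcombe interval 10.6 to 13.2), and it was higher on 19 of 19 chromosomes. In introns, 22.9% of regions were in both lists, 57.4% were GFP-negative only and 19.6% GFP-positive only. The GFP-positive-only share was 3.12 points lower in exons than in introns (2.09 to 4.12 points lower), with the same sign on 14 of 19 chromosomes. This difference depended on the peak threshold, at −0.540 points (−2.05 to 1.10) with peaks of a −log10 q of at least 5, and its sign was opposite with the 10000 strongest peaks of each list (3.91, −1.42 to 9.59). Against promoters the both-list share of exonic regions was 19.4 points lower (18.1 to 20.7). Many both-list regions reached into a promoter. At least 1 base lay in a promoter window in 538 of 2183 both-list regions (24.6%), 273 GFP-negative-only regions (8.95%) and 123 GFP-positive-only regions (11.9%). Without all of these, both-list regions made up 30.8% of exonic regions.

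Values close to the limits of the rule were as follows. The widest members were 3993, 3985 and 3978 bp wide, and the narrowest exonic regions left out for width were 4001, 4022 and 4025 bp wide, of 96 left out in all. The nearest member lay 501 bp from a transcript start, and 817 members lay under 1 kb from one.

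Regions in both lists were wide, strong and CG-rich, and those of a single list were narrow and near the calling threshold. Median width was 1318 bp for both-list regions, 509 bp for GFP-negative-only and 581.5 bp for GFP-positive-only regions. Since merging joins the peaks of both lists, a both-list region is wider in part by construction. In the GFP-negative list the median −log10 q was 5.19 in both-list regions and 2.24 in GFP-negative-only regions, and in the GFP-positive list it was 3.19 and 1.95. Whether an IgG library served as control for the q values and fold enrichments is not given in the sources used here. Fold enrichment over the background of the peak caller, again as given by the authors, had medians of 4.83 and 3.55 in the GFP-negative list and of 4.03 and 3.45 in the GFP-positive list. Summits with −log10 q values of 5 or more, in whichever list, were found in 57.6% of both-list regions, 15.6% of GFP-negative-only regions and 6.48% of GFP-positive-only regions.

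**Figure D2:**
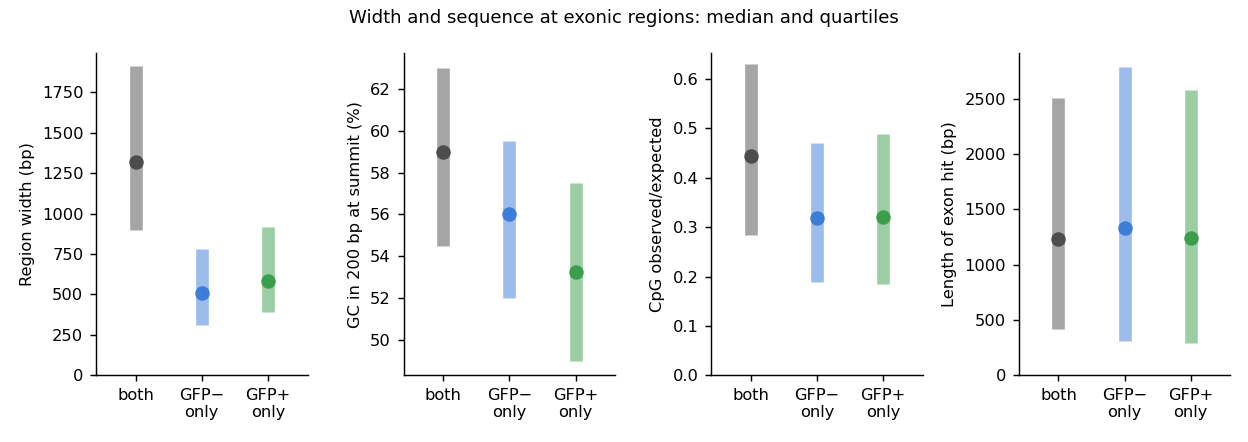
Median (point) and quartiles (bar) of region width, GC content and CpG observed/expected ratio in 200 bp around the summit, and length of the exon hit, for exonic regions in both lists (n = 2183), the GFP-negative list only (n = 3051) and the GFP-positive list only (n = 1034). Both-list regions had the highest GC median (59%) and GFP-positive-only regions the lowest (53.25%), while exon lengths overlapped widely.

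Base composition followed the classes too. In 200 bp around the summit, median GC content was 59% in both-list, 56% in GFP-negative-only and 53.25% in GFP-positive-only regions, whereas exonic bases outside promoters held 45.4% GC. The observed/expected CpG ratio, which compares the CG dinucleotides found with those given by the C and G content, had medians of 0.443, 0.318 and 0.321. It reached 0.6 in 28.6% of both-list, 11.4% of GFP-negative-only and 13.5% of GFP-positive-only regions. Regions that reach into a promoter window, more frequent in the both-list class, are included, and composition without them was not computed. The same order in summit GC was seen among regions with a coding midpoint, with medians of 60%, 58% and 55.5%. Regions with a midpoint in a 3′ UTR had medians of 57.5%, 54.5% and 52%. The summit of such a region can lie outside the exon part of its midpoint.

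The stronger an exonic peak was in its own list, the more often the other list also held it. Peaks were ranked by −log10 q within their list and cut into bins of 20 percentile points. For the GFP-negative list, 19.3% of exonic regions in the lowest bin (n = 1296) and 85.0% in the highest (n = 494) had a peak in the GFP-positive list. For the GFP-positive list the shares ran from 47.9% (n = 814) to 96.1% (n = 229). Exonic regions were shared more often than intronic ones of the same bin in 4 of 5 bins of the GFP-positive list, the exception being the highest (96.1% and 96.4%), and in 5 of 5 bins of the GFP-negative list. In the lowest bins introns were at 12.1% and 35.0%. The GFP-positive list held fewer peaks (53110 compared with 81913 on chromosomes 1 to 19), and a lower yield of that list and a true absence of DPPA4 cannot be told apart for a weak single-list region.

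**Figure D3:**
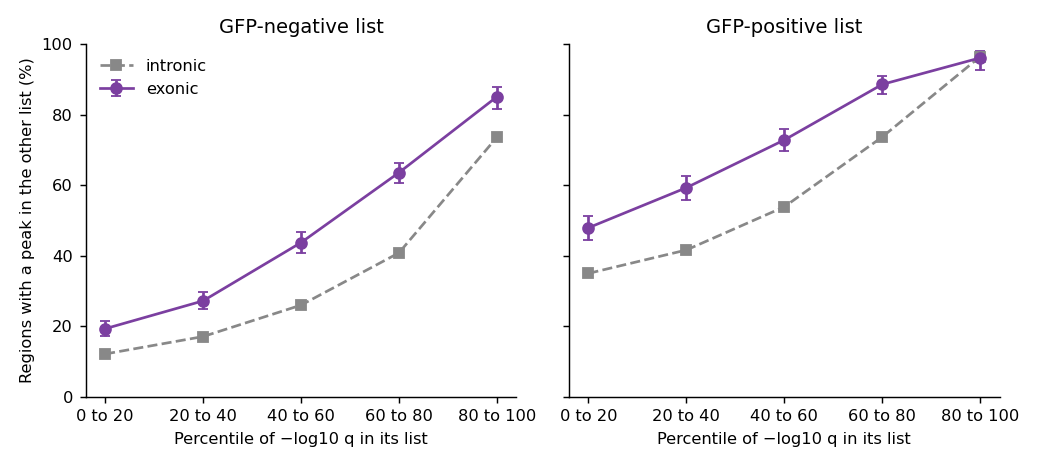
Share of regions (percent, vertical axis) that also had a peak in the other list, by the percentile of −log10 q of the region in its own list (horizontal axis, bins of 20 points), for exonic regions (circles, 95% Wilson intervals) and intronic regions (squares). Sharing of exonic regions rose from 19.3% to 85.0% in the GFP-negative list and from 47.9% to 96.1% in the GFP-positive list.

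Coding sequence was the exon part that carried the most regions, and both-list regions fell there most often. Of all members 3162 (50.4%) had their midpoint in coding sequence and 1634 (26.1%) in a 3′ UTR, while coding sequence made up 29.2% and 3′ UTRs 35.1% of exonic bases outside promoters. Regions covered 11.7% of coding bases but 5.36% of 3′ UTR bases. The coding share was 60.9% in both-list regions, 43.7% in GFP-negative-only regions and 48.3% in GFP-positive-only regions. Both-list regions exceeded GFP-negative-only regions by 17.2 points (14.4 to 19.8), with the same sign on 19 of 19 chromosomes. GFP-positive-only regions exceeded GFP-negative-only regions by 4.54 points (1.03 to 8.05), with the same sign on 15 of 19 chromosomes, but the interval included 0 with peaks of a −log10 q of at least 5 (−1.14 to 13.8). The 3′ UTR shares ran the other way, with 20.8% in both-list, 30.9% in GFP-negative-only and 22.8% in GFP-positive-only regions.

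**Figure D4:**
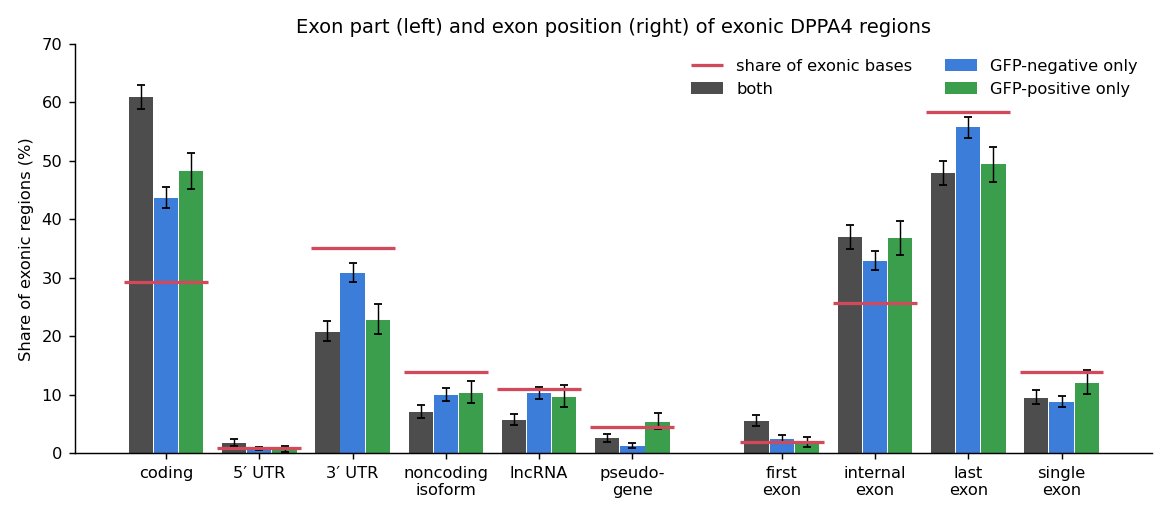
Share of exonic regions (percent, vertical axis) by exon part (left) and by position of the exon in its transcript (right) for the 3 classes, with 95% Wilson intervals as whiskers. Red lines mark the share of exonic bases outside promoters, and the coding share stands above its line (29.2%) in each class, at 60.9%, 43.7% and 48.3%.

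The coding excess of both-list regions was present at every strength but not at every width. In each bin of the GFP-negative list their coding share was between 55.2% and 63.4%. That of GFP-negative-only regions was 43.9% in the lowest bin, 46.6% and 46.2% in the next ones, 37.7% in the fourth, and 16.2% (9.53 to 26.2, n = 74) in the highest. The strongest GFP-negative-only regions were thus seldom coding, and 36.5% of them lay in 3′ UTRs. By width, the coding shares of both-list and GFP-negative-only regions were close below 500 bp (42.7% of 103 and 40.6% of 1496) and 63.7% and 44.9% from 1000 to 2000 bp.

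Untranslated and noncoding exons took smaller shares. A 5′ UTR was hit by 1.74% of both-list, 0.787% of GFP-negative-only and 0.580% of GFP-positive-only regions, with 0.843% of exonic bases. Exons of long noncoding RNAs (lncRNAs) held 5.68%, 10.3% and 9.67%. Pseudogene exons held 2.57%, 1.25% and 5.42%, and their share was 4.17 points higher in GFP-positive-only than in GFP-negative-only regions (2.87 to 5.76), with the same sign on 17 of 19 chromosomes. Of the 56 GFP-positive-only regions in pseudogenes 51.8% had a copy number of at least 2.

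By position in the transcript, internal exons were hit more and last exons less often than their share of bases. Internal exons held 37.0% of both-list, 32.9% of GFP-negative-only and 36.8% of GFP-positive-only regions, and 25.8% of exonic bases. Last exons held 48.0%, 55.8% and 49.4%, and 58.3% of bases. First exons held 5.54% of both-list and 2.49% of GFP-negative-only regions, a difference of 3.05 points (1.97 to 4.20). The first-exon difference rested on regions that reach into a promoter window, since it was −0.0393 points (−0.776 to 0.792) among regions without any promoter base. Midpoints lay at a median of 3580 bp from the nearest transcript start in both-list, 4382 bp in GFP-negative-only and 3851 bp in GFP-positive-only regions.

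Members were spread over 4831 genes, of which 4067 were among the 19865 protein-coding genes with exonic bases outside promoters. There were 3780 genes with 1 region and 1051 with at least 2, and 67 genes had at least 4. Dst, which encodes the cytoskeletal linker dystonin, had 8, of which 4 were in both lists and 4 GFP-positive only, and none was GFP-negative only. In the megabase of chromosome 1 that holds Dst, 83 regions of any location were GFP-positive only, 54 were in both lists and 14 were GFP-negative only. Over all merged regions these classes made up 18.2%, 34.3% and 47.6%. This megabase was among those with the most GFP-positive-only exonic regions, so its split is not independent evidence.

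Genes with many regions of 1 class differed by list. Agap1, Dnah17 (an axonemal dynein) and Wscd2 each had 6 GFP-negative-only regions and 1 in both lists, and Helz2 had 5 GFP-negative-only regions and no other. Tmem72 had 5 GFP-positive-only regions and no other, all in its 3′ UTR. Their −log10 q values ran from 1.46 to 12.0, and the copy numbers at their summits ran from 511 to 650.5, so the reads under them could come from any of these copies. There were 130 genes that had GFP-negative-only and GFP-positive-only regions together.

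Most exonic regions of protein-coding genes belonged to genes that also had DPPA4 at a promoter. For members with no base in a promoter window, the promoter windows of the same protein-coding gene were touched by a both-list region in 80.7% of both-list, 78.3% of GFP-negative-only and 80.2% of GFP-positive-only members, against 61.4% of all protein-coding genes. Members are counted per region, so a gene with several counts several times, whereas shares of all genes are per gene. Promoters whose regions were all GFP-positive only belonged to 5.74% of GFP-positive-only members, 0.914% of both-list members, 0.790% of GFP-negative-only members and 1.79% of genes. The 5.74% stands for 44 of 767 members, and these included regions of the Zscan4 and Usp17l families and other 2-cell stage genes described below. The share without genes of the 2-cell list was not computed. Promoters whose regions were all GFP-negative only belonged to 12.3% of GFP-negative-only and 6.26% of GFP-positive-only members. Genes with no region at any promoter held 8.29%, 8.02% and 7.17% of the 3 classes, and were 26.3% of protein-coding genes.

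Ranked by the lower of the values in the lists, the strongest both-list region lay in the last exon of Lars2, the mitochondrial leucyl-tRNA synthetase, in its 3′ UTR (chr9:123461804-123462169). Its −log10 q was 171 in mESCs and 248 in 2CLCs, but it had a fold enrichment of 5.07 and 6.001, and a copy number of 2. By the same measure the next were regions of Egr1, an immediate-early zinc finger factor (84.8 and 72.0), of Clec11a, a secreted lectin (133 and 59.2), and of Sptbn4, a neuronal spectrin (80.9 and 48.3). The Sptbn4 region covered exon 33 of 36 (chr7:27360786-27362647) and touched no promoter window, whereas 1897 bases of the Egr1 region and 864 of the Clec11a region did. Iffo2 (129 and 47.0), Ankrd39 (109 and 46.7) and Mafa, an activator of the insulin gene (70.2 and 35.4), had over 1 kb in a promoter window. In the GFP-negative list alone Clec11a, Iffo2 and Ankrd39 were above Egr1.

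The strongest GFP-negative-only regions lay mostly in lncRNAs. Of the leading 8, 7 were in lncRNA exons and the other was in the 3′ UTR of Cd300e, a myeloid receptor. Gm12299 led with a −log10 q of 41.8 and a fold enrichment of 13.5 in its last exon (chr11:67010873-67012123), followed by Gm48189 with 37.7 and AC140413.2 with 34.8. All 8 had a copy number of 1.

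Among GFP-positive-only regions the strongest reached a −log10 q of 15.5. It lay in Gm4340 (chr10:104194712-104198246), with a copy number of 11, a GC content of 34.5% and 1186 bases in a promoter window. B230307C23Rik (14.7), Sos2, a RAS exchange factor (12.4), Tmem72 (12.0), Pcdhgb4, a clustered protocadherin (12.0), and Vmn1r88, a vomeronasal receptor (11.9), came next. Of the leading 8, Gm4340, Sos2, Tmem72, Gm49015 and Gm16026 had a copy number of at least 2.

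Multi-copy sequence was concentrated in the GFP-positive-only class. A summit with a copy number of at least 2, the median number of times that the 31-base words of the surrounding 200 bp occur in the genome, was found in 15.4% of GFP-positive-only, 3.05% of GFP-negative-only and 5.22% of both-list regions. The difference between single-list classes was 12.3 points (10.2 to 14.7). A copy number of at least 10 was reached by 5.90%, 0.557% and 1.37%. These shares were still lower than in introns, where 27.1% of GFP-positive-only regions had a copy number of at least 2. As the aligner placed multimapping reads at random, a peak in such sequence gives the repeat but not the copy, and the part of mapping in this difference was not tested.

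Exonic regions in genes of the 2-cell stage were all GFP-positive only. These genes belong mainly to tandem families that are transcribed in the 2-cell embryo and in 2CLCs. There were 36 such regions in 30 of 123 genes, and 36 of 36 were GFP-positive only (100%, 90.4 to 100), beside the 18.2% of all merged regions. The list was compiled with earlier results of these data known, so that its direction is not independent evidence. Coding sequence held 23 of the 36. A copy number of at least 2 was found at 26 of them, and the other 10 had single-copy summits.

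The Zscan4 cluster on chromosome 7 gave 8 of these regions. Zscan4 proteins are zinc finger factors that maintain telomeres in 2CLCs. The region in the last exon of Zscan4-ps2 had a −log10 q of 7.08 and that in the last exon of Zscan4c had 4.18 (chr7:11008969-11010422), where the fingers are encoded. Exon 2 was hit in Zscan4b (2.39), in Zscan4c (1.46) and in Zscan4a (2.46). All had copy numbers from 6 to 9. In the megabase that holds Zscan4c, 78 regions of any location were GFP-positive only, 5 were in both lists and 2 were GFP-negative only. Over all merged regions these classes made up 18.2%, 34.3% and 47.6%. This megabase, too, was among those with the most GFP-positive-only exonic regions.

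Genes of the eukaryotic initiation factor 1A-like cluster and of the Gm4340 cluster followed. Gm2016 reached 6.62 in its last, coding exon, and Gm4027 and BB287469 reached 3.98 and 3.08 in theirs. Gm21312 reached 8.82 in its only exon, and its neighbour Gm21304 reached 3.08. Copy numbers ran from 7 to 14 in these genes.

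The Usp17l deubiquitinases, which lie apart on chromosome 7, were mostly single-copy. Their 7 regions were at Usp17la, Usp17lb, Usp17lc, Usp17ld and Usp17le, and 5 of them had a copy number of 1. The highest −log10 q was 5.44 at exon 2 of Usp17le (chr7:104770336-104770863), and the lowest was 1.46 at Usp17la. Tcstv1 (3.46) and AF067061 (5.67) had a copy number of 2 and 3. Tdpoz4 (2.48), Tdpoz5 (2.66), Obox6 (2.07) and Pramef17 (2.09) were weaker, and that of Obox6 was single-copy.

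A further cluster of GFP-positive-only regions lay near Sp110, a nuclear body gene with many copies on chromosome 1. The megabase from chr1:85000001-86000000 held 12 GFP-positive-only exonic regions, of which 9 had a copy number of at least 2. It held 2 GFP-negative-only and 0 both-list exonic regions. Of regions of any location there, 130 were GFP-positive only, 17 were in both lists and 4 were GFP-negative only. Over all merged regions these classes made up 18.2%, 34.3% and 47.6%. The megabase was among those with the most GFP-positive-only exonic regions, so its split is not independent evidence. In it, Gm16026 reached a −log10 q of 10.7 with a fold enrichment of 2.84, and Sp110 itself 5.17 with 2.25. Both fold enrichments were below the GFP-positive-only median of 3.45.

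**Figure D5:**
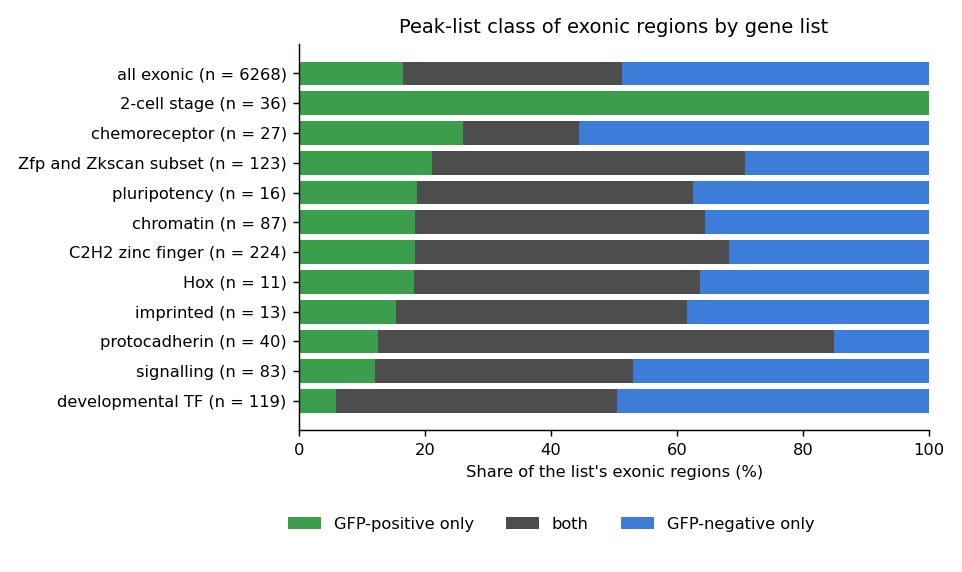
Share of the exonic regions of each gene list (percent, horizontal axis) that were GFP-positive only, in both lists or GFP-negative only, with all exonic regions on top and n the number of regions. The 36 regions of 2-cell stage genes were all GFP-positive only, and 5.88% of the regions of developmental transcription factors were.

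C2H2 zinc finger genes held 224 regions in 164 of 568 genes. Beside 34.8%, 48.7% and 16.5% of all exonic regions, 112 of them (50%) were in both lists, 71 (31.7%) GFP-negative only and 41 (18.3%) GFP-positive only. They made up 5.13% of both-list, 2.33% of GFP-negative-only and 3.97% of GFP-positive-only regions. The both-list share exceeded the GFP-negative-only share by 2.80 points (1.76 to 3.92). The GFP-positive-only share was 1.64 points above it (0.448 to 3.09), positive on 9 and negative on 9 of 19 chromosomes. Of the 41 GFP-positive-only regions 10 lay in Zscan4 genes and Zfp809, which are also on the 2-cell list, and 9 of these had a copy number of at least 2. Without genes of the 2-cell list the difference was 0.779 points (−0.309 to 2.14), and at copy number 1 it was 1.06 (−0.124 to 2.57). Its interval also included 0 with peaks of a −log10 q of at least 5 (3.02, −0.0978 to 7.58) and with the 10000 strongest peaks of each list (3.95, −1.57 to 10.3), so that a difference between these classes was not established. In the subset of Zfp and Zkscan symbols, rich in KRAB zinc finger repressors, 61 of 123 regions were in both lists. The last exon was hit in 153 of the 224 regions. Beyond Prdm9, the family included Klf1, an erythroid factor (36.3 and 29.5 in exon 2 of 3), Prdm2 (33.5 and 28.3 in exon 6 of 10) and Zfp574 (18.3 and 12.4 in its last exon).

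The linker between fingers, shown above in Prdm9, Zscan2 and Zfp629, was found on either strand in 200 bp around the summit at 34 of 6268 exonic regions (0.542%) and at 61 of 96636 merged regions (0.0631%). In introns 6 of 32852 held it. In C2H2 genes it was present at 26 of 224 regions (11.6%, 8.05 to 16.5), and all 26 lay in a last or only exon. By class, 12 of 112 both-list, 6 of 71 GFP-negative-only and 8 of 41 GFP-positive-only regions held it, and the intervals overlapped (6.24 to 17.8, 3.93 to 17.2 and 10.2 to 34.0). The other 8 exonic regions with the linker lay in genes outside the symbol list. Since the linker is a feature of this protein family, its higher share there was given in advance and is not a result about DPPA4. The share in C2H2 exons without a peak was not computed.

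Protocadherins, cell adhesion genes that mostly lie in clusters of long variable exons with a promoter each, had the highest both-list share of the lists. They held 40 regions in 37 of 61 genes, of which 29 (72.5%) were in both lists, beside 34.8% of all exonic regions. Another 6 were GFP-negative only and 5 GFP-positive only. A promoter window was reached by 15 of the 40, and by 14.9% of all exonic regions. Coding sequence held 37 of the 40. On chromosome 18, the megabase from 37 to 38 Mb held 24 both-list exonic regions. Pcdhgb5 had a −log10 q of 10.9 and 13.6 and Pcdhga10 had 17.6 and 9.12. Pcdhgb4 was GFP-positive only (12.0), and Pcdhga12 was GFP-negative only in its 3′ UTR (10.8). A copy number of at least 2 was found at 13 of the 40 summits.

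Developmental transcription factors outside the Hox clusters held 119 regions in 95 of 261 genes, and few were GFP-positive only. Of these 53 were in both lists, 59 GFP-negative only and 7 GFP-positive only (5.88%, 2.88 to 11.6), beside 16.5% of all exonic regions. Foxc2 (16.6 and 14.6), Phox2a (25.7 and 13.4) and Tbx2 (10.1 and 9.61) were among the strongest both-list regions. Foxd1 had a GFP-negative-only region in its 3′ UTR (12.8) and a GFP-positive-only one in its coding sequence (1.93). Evx2 had the strongest GFP-positive-only region (7.09), in its 3′ UTR with a GC content of 75.5%.

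Hox genes, which pattern the body axis, held 11 regions in 11 of 37 genes. Of these, 5 (45.5%) were in both lists, 4 (36.4%) GFP-negative only and 2 (18.2%) GFP-positive only. Over all exonic regions these shares were 34.8%, 48.7% and 16.5%. Hoxd12 had 5.49 and 11.3 in its first exon. Signalling genes of the WNT, BMP, FGF, Notch, Hedgehog and Eph pathways held 83 regions. Of these, 34 (41.0%) were in both lists, 39 (47.0%) GFP-negative only and 10 (12.0%) GFP-positive only. Wnt10a (20.4 and 16.2), Gdf7 (10.5 and 10.1) and Fzd8, a WNT receptor (12.2 and 8.65), led the both-list regions by the lower value, followed by exon 24 of Notch3 (13.4 and 6.87). Fgf4, an ESC growth factor, had a GFP-negative-only region in its 3′ UTR (15.8, chr7:144863668-144864857), and Gdf6 led the GFP-positive-only regions (8.09).

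Pluripotency genes held 16 regions in 11 of 33 genes. Of these, 7 (43.75%) were in both lists, 6 (37.5%) GFP-negative only and 3 (18.75%) GFP-positive only. Over all exonic regions these shares were 34.8%, 48.7% and 16.5%. Klf4 (8.13 and 9.81 in exon 3 of 5), Klf5 (13.4 and 8.32 in exon 2 of 4), Utf1 (33.2 and 6.62) and Nodal (5.89 and 2.07) were in both lists in coding exons. Lefty1 (8.72) and Sall4 (6.68) were GFP-negative only in their last exons. Tet1, the 5-methylcytosine dioxygenase, had GFP-positive-only regions in exons 2 (4.27) and 13 (1.84) and a GFP-negative-only one in exon 7 (1.504). Dppa2, which encodes the partner of DPPA4, had a GFP-positive-only region in exon 4 of 8 at the calling threshold (1.30).

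Chromatin regulators held 87 regions, of which 40 were in both lists, 31 GFP-negative only and 16 GFP-positive only, and 46.0% in both lists is to be read beside 34.8% of all exonic regions. Cbx6, a Polycomb subunit, had a both-list region in its last exon (14.1 and 11.7). Jarid2, of the same machinery, had 8.45 and 9.12 in exon 7 of 18. A region at Ehmt2, the tagged gene, had 9.09 and 11.4, with 1928 of its bases in a promoter window. Imprinted genes held 13 regions, with H13 the strongest (26.7 and 9.20). These were split into 6, 5 and 2 (46.2%, 38.5% and 15.4%), beside 34.8%, 48.7% and 16.5% of all exonic regions.

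Families with few regions for their size were the chemoreceptors. Olfactory and vomeronasal receptor genes held 27 regions in 25 of 1827 genes, or 0.431% of members for 5.26% of exonic bases. Of these 5 (18.5%) were in both lists, 15 (55.6%) GFP-negative only and 7 (25.9%) GFP-positive only. Over all exonic regions the shares were 34.8%, 48.7% and 16.5%. Vmn1r88 was the exception in the GFP-positive list, with 3 regions in its 3′ UTR that reached a −log10 q of 11.9. Ribosomal protein genes held 4 regions, or 0.0638% of members for 0.0817% of exonic bases. Regions covered 10.4% of the exonic bases of these ribosomal protein genes, compared with 6.98% of all exonic bases. Histone genes held 5 regions in 5 of 26 genes, or 0.0798% of members for 0.0379% of exonic bases.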

How the data were processed

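DPPA4 CUT&RUN peaks were taken from the lists deposited for GFP-negative and GFP-positive cells, and samples were grouped by their titles. The authors trimmed reads with bbduk, aligned them to mm10 with STAR 2.7.10, placing a multimapping read at 1 random best position, removed duplicates with Picard 2.26.0 and blacklisted reads, and called peaks with MACS2 2.2.6 on whole fragments, 1 list per state for the pooled replicates. The depth of the libraries is not given in the lists, so precision is given as counting error of regions. The deposited columns hold a score (derived from −log10 p), fold enrichment at the summit as a ratio, −log10 p-value, −log10 q-value and, as another quantity, the summit offset in bp. The score and the −log10 p were not used. Both IgG libraries were not used here. The number of unused columns with per-sample values was 0.

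Peaks were merged, placed by midpoint and classed with Python 3.11.15, numpy 2.4.6, pandas 2.3.3 and numba 0.67.0. A base in several annotations counted as coding, then 5′ UTR, 3′ UTR, noncoding transcript, lncRNA or pseudogene, in that order. Copy number was the median genome-wide count of 31-base words in 200 bp around the summit. Merging, placement, copy counting and the motif search were tested on simulated data. Shares carry 95% Wilson and differences 95% Newcombe intervals (scipy 1.17.1). The members and the gene lists, which are by symbol, were chosen with earlier results of these data known. Named genes were, per class, the 8 strongest regions, the 5 genes with most regions and the strongest regions of each list with at least 3, with any region of a 2-cell or pluripotency gene. Alternatives covered position, promoter window, threshold, list size, overlap, width, annotation and copy number. Some items are not reported here.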

Additional observations from a re-analysis of the deposited data

How the results depend on the processing

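No paired analysis was possible because each list pools its replicates, and for the same reason no replicate could be left out. The 2 lists are single measurements, so a difference between them cannot be told apart from a difference between libraries. Joining peaks only at an overlap of 50% of the shorter peak, or dropping the width limit, moved no value beyond its interval. The cause of the following moves was not tested unless the setting itself gives it. The first-exon difference between both-list and GFP-negative-only regions (3.05 points) was 1.42 with regions placed by summit. With a promoter window of 5 kb before to 2 kb after a start, fewer regions qualified (3852), both-list and GFP-negative-only regions made up 32.5% and 51.1%, and the first-exon difference was −0.0867. With peaks of a −log10 q of at least 5 there were 1816 regions, split 29.3%, 59.8% and 10.9% (both, GFP-negative only, GFP-positive only), the exonic minus intronic difference in GFP-positive-only share was −0.540 points (−2.05 to 1.10) in place of −3.12, and the first-exon difference 7.30. With the 10000 strongest peaks of each list there were 314 regions, split 31.8%, 35.0% and 33.1%, the exonic minus intronic difference was 3.91 (−1.42 to 9.59), the GFP-positive-only minus GFP-negative-only difference was 15.9 points for coding sequence and 3.95 (−1.57 to 10.3) for C2H2 genes, and the first-exon difference was 17.4. With protein-coding genes only, 36.4% were in both lists and the GFP-positive-only minus GFP-negative-only difference in copy numbers of at least 10 was 2.72 points in place of 5.34. At copy number 1, GFP-negative-only and GFP-positive-only regions made up 50.1% and 14.8%, and the exonic minus intronic difference was −1.80. The C2H2 difference had an interval that included 0 at copy number 1 (−0.124 to 2.57) and at the peak limit of 5 (−0.0978 to 7.58).

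Further settings were chosen after seeing the data. Keeping merged regions whose stronger peak reached a −log10 q of 5 left 1800, split 69.8%, 26.4% and 3.72%, with an exonic minus intronic difference of −2.01, a C2H2 difference of −0.796 (−3.82 to 6.59), a first-exon difference of 4.63 and a difference in copy numbers of at least 10 of 18.6 points. Leaving out regions with any base in a promoter window gave 30.8% and 52.1% for both-list and GFP-negative-only regions and a first-exon difference of −0.0393. Leaving out genes of the 2-cell list gave a C2H2 difference of 0.779 (−0.309 to 2.14). The GFP-positive-only minus GFP-negative-only coding difference was positive under all settings run, but with a −log10 q limit of 5 its interval included 0 (−1.14 to 13.8 for peaks, −4.76 to 19.8 for merged regions).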
